A study of Bos taurus with 20 samples.

Results

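A group of 34 genes had no reads in growing bovine satellite cells and was read in every library after 96 h in low serum. The genes were chosen by their raw read counts: a count of 0 in each of the 4 libraries at 0 h and a count of at least 10 in each of the 4 libraries at 96 h. They were 34 of the 27607 genes counted, and 34 of the 9029 genes without a read at 0 h. Because the 0 h and 96 h counts chose the genes, the values at those times and the difference between them are given as a description, without a test. The 24 h, 48 h and 72 h libraries took no part in the choice. A gene so chosen must still rise at some step from 0 h to 96 h.

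The cells were satellite cells of the Belgian Blue breed, grown on collagen-coated flasks in medium with 20% fetal bovine serum and then changed to differentiation medium with 2% serum. PolyA RNA was sequenced at 0, 24, 48, 72 and 96 h after the change, with 4 biological replicates (A to D) at each time. Per the labels, replicates A and B were batch 1 and replicates C and D were batch 2. All groups shared breed and cell type, and the labels set them apart by the hours after the medium change. The 0 h cells had spent no time in low serum. Time in low serum and total time in culture cannot be told apart. The labels do not say whether the replicates came from separate animals. Total counts lay between 21100797 and 41998509 per library, and the library with the most reads was replicate B at 0 h.

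Satellite cells are the stem cells of skeletal muscle. Withdrawal of serum makes cultured satellite cells leave the cell cycle and fuse into multinucleate myotubes, and the regulatory genes of this programme generally come on before the genes of the mature contractile apparatus. In bulk RNA, fewer cells of a type and less RNA per cell cannot be told apart. The count table identifies genes by Ensembl cattle identifiers, and the gene table at hand (assembly ARS-UCD2.0) paired 0 of them with a symbol, so no symbol, role, position or sequence is given for any of the 34 genes. The labelled cell type could not be checked against its marker genes for the same reason. The genes are numbered here from 1 to 34 in falling order of mean raw count at 96 h. That order ranks the number of reads, and hence the precision, and is not an order of expression, since read counts also depend on transcript length. Counts are listed for replicates A, B, C and D in that order. Levels are given as CPM, read counts scaled to a common library size by the trimmed mean of M values (TMM).

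At 96 h the mean raw count of the 34 genes ran from 14.3 to 716, with a median of 37.5. Members 1 to 8 averaged at least 100 counts, and 4 members averaged under 20. A total of 3 counts over the 4 libraries at 0 h would have been 0.0215 CPM. Against that floor, which covers counting error only, the 96 h levels were at least 27.2-fold higher for member 33 and at least 1344-fold higher for member 1, ENSBTAG00000040279. Just inside the rule, 7 members had a lowest 96 h count of 10 or 11, with means of 14.3 to 23.8. Just outside, 7 genes without reads at 0 h had a lowest 96 h count of 8 or 9, with means of up to 23.0.

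Silence at 0 h was bounded by depth. Another 31 genes met the 96 h condition with a single read over all 4 libraries at 0 h, and that read lay in replicate A for 4 of them, in B for 17, in C for 7 and in D for 3. Without replicate B at 0 h, the deepest library, 60 genes would have met the rule. The 26 additional genes had between 1 and 4 reads in that library, and their median 48 h and 72 h levels were 35.8% and 85.4% of their 96 h level. A rule applied in one batch was followed into the other. Of 61 genes chosen in batch 1, 41 had no read at 0 h in batch 2 and the largest total there was 7 reads. At 96 h, 51 of the 61 had at least 10 reads in both libraries of batch 2. Of 90 genes chosen in batch 2, 38 had no read at 0 h in batch 1, with a largest total of 6, and 80 had at least 10 reads in both libraries of batch 1 at 96 h.

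The 34 genes came on at different times between 24 h and 96 h. Taking a gene as on at a time when each of the 4 libraries held at least 10 reads, 1 member was on at 24 h, 18 members at 48 h and 26 members at 72 h. By the time at which each was first on, 1 member was a 24 h gene, 17 were 48 h genes, 9 were 72 h genes and 7 were 96 h genes. Traces came earlier. At 24 h, 26 members had a read in some library, 10 had one in every library and 8 had none. At 48 h every member had a read in some library and 31 had one in every library.

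**Figure D1:**
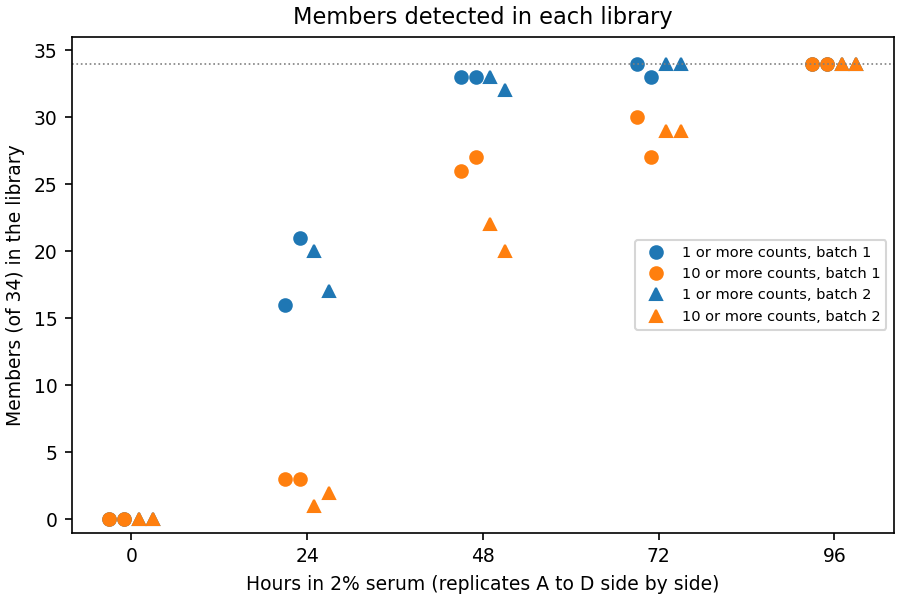
Number of the 34 members with at least 1 count (blue) and with at least 10 counts (orange) in each library, by hours in 2% serum; circles are batch 1 and triangles batch 2. At 48 h between 20 and 27 members reached 10 counts, with both libraries of batch 1 above both of batch 2.

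Library totals differed between batches at 48 h. The libraries of replicates A and B had the most reads at that time and held 26 and 27 members with at least 10 counts, against 22 in replicate C and 20 in replicate D, so depth and batch cannot be told apart there. At 72 h the smallest library, replicate C, held 29 such members, against 30, 27 and 29 in replicates A, B and D. With all libraries thinned to the smallest total, the same genes were on in 16 cases at 48 h and in 24 at 72 h. With a threshold of 20 counts the numbers were 11 and 17, and with 1 count they were 31 and 33.

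Summed over the 34 genes, the level was 3.25 ± 0.672 CPM at 24 h, 33.8 ± 0.826 CPM by 48 h, 84.5 ± 14.7 CPM by 72 h and 105 ± 4.59 CPM by 96 h (mean ± SD, n = 4). The 24 h, 48 h and 72 h libraries did not overlap in this sum, while the highest 72 h library, replicate C at 101 CPM, passed the lowest 96 h library, replicate B at 100.7 CPM. Member 1 supplied 2.51% of the members' counts at 24 h, 7.26% by 48 h, 18.5% by 72 h and 27.5% by 96 h, so the sum increasingly describes that gene. The median gene had reached 2.47% of its own 96 h CPM at 24 h, 39.5% by 48 h and 73.6% by 72 h. In batch 1 these medians were 1.77%, 45.2% and 84.1%, and in batch 2 they were 2.55%, 28.6% and 74.0%. At least 50% of the 96 h level had been reached by 1 member at 24 h, by 13 at 48 h and by 27 at 72 h.

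Of the 33 members that passed the low-count filter, which 1 of the 34 did not, 30 were called higher at 48 h and 0 were called lower (edgeR quasi-likelihood test, adjusted p under 0.05), where 31.4% of all 14636 genes tested were higher and 31.9% lower. The fitted log2 change had a median of 3.98 over these members and -0.03 over all genes tested. Over the same 33 members the median log2 ratio of mean CPM was 3.78. For this value, members that had no 24 h read were set at the floor of 3 counts. Member 27, with 2 reads in all at 48 h, was given a log2 ratio of 0. The filter was passed through libraries where the genes are high, so the share says little by itself. The rule also requires a rise at some step, so more rises than among all genes were partly set by the choice. With no filter all 34 could be tested and 31 were called higher. With the 24 h, 48 h and 72 h libraries alone 28 passed the filter and 27 were called. No share of all genes was at hand for these other fits. In 28 of the 34, every 48 h library lay above every 24 h library. Members 10, 27 and 31 did not pass the test, with 22, 0 and 3 reads over the 4 libraries at 24 h and 38, 2 and 8 at 48 h.

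Between 48 h and 72 h the genes divided. Of the same 33 members, 15 were called higher at 72 h and 2 were called lower (edgeR), against 20.7% and 20.8% of all genes tested, and 16 did not pass the test in either direction. The median log2 change was 0.73, and -0.01 over all genes tested. With no filter 19 were called higher and 3 lower. With the 24 h, 48 h and 72 h libraries alone 28 passed the filter, and 14 were called higher and 3 lower. In batch 1 alone 13 of 34 members tested were called higher and 1 lower, and in batch 2 alone 12 and 0. No share of all genes was at hand for these other fits. As for the step before, more rises than falls were partly set by the choice of the genes. The 15 higher members gained between 1.01 and 4.24 on the log2 scale. Member 27 marked the upper end, with 2 reads in all at 48 h and 44 at 72 h, a ratio of 23.6 with an exact 95% counting interval of 6.17 to 201.

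**Figure D2:**
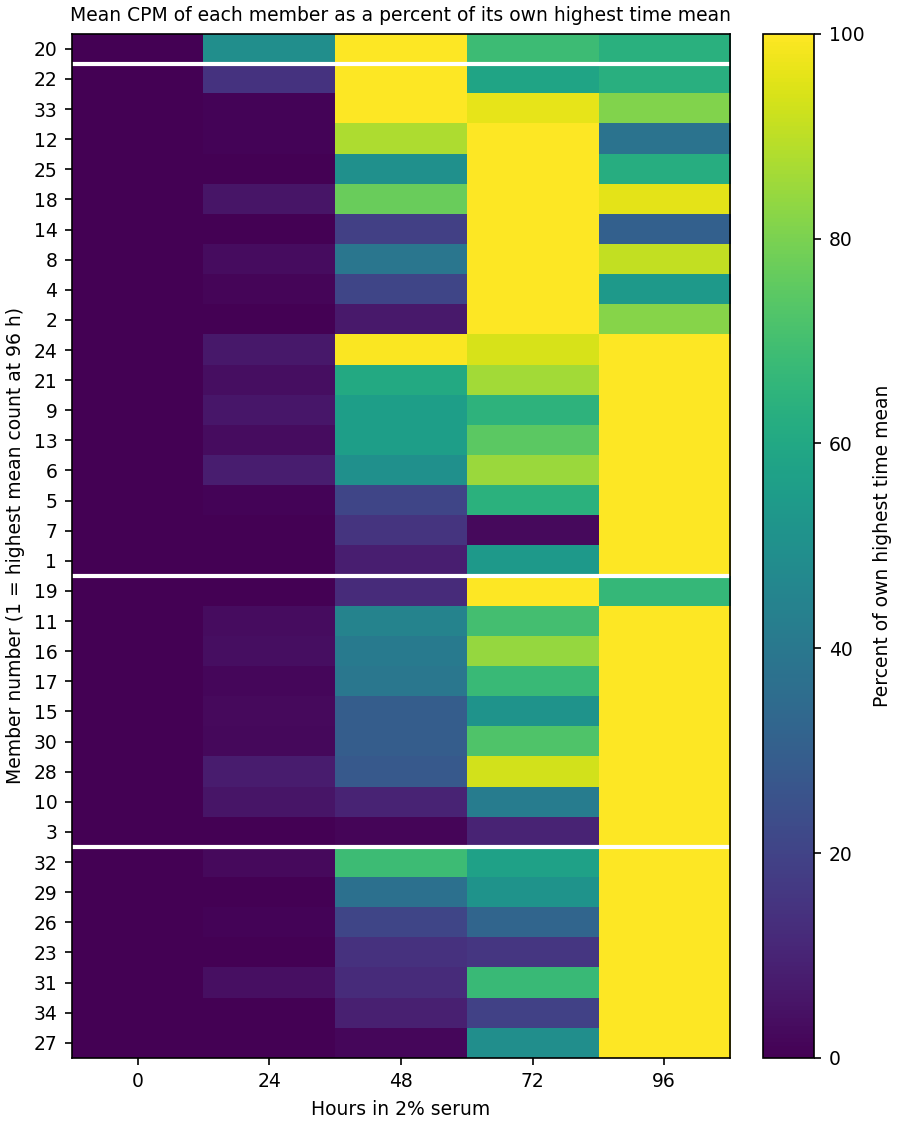
Mean CPM (n = 4) of each member at each time, as a percent of that member's own highest time mean; rows are members by number, grouped by white lines into those first on at 24 h (1 member), 48 h (17), 72 h (9) and 96 h (7). The 0 h column is 0 throughout by the choice of the genes, and 11 members have their highest mean at 48 h or 72 h.

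The highest time mean lay at 96 h for 23 members, at 72 h for 8 and at 48 h for 3. For 20 members the mean did not fall at any step. Both numbers were partly set by the choice of the genes, which required reads at 96 h. It left out 11 genes without reads at 0 h that were on earlier but not at 96 h. The time of the highest mean was the same in both batches for 28 of the 34, and the other 6 were members 6, 16, 17, 18, 24 and 33. Apart from members 1 and 2, the genes given by identifier below were singled out after their values had been seen.

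Member 1, ENSBTAG00000040279, was higher at each later time from 48 h on. It held 1, 6, 0 and 3 counts at 24 h, 102, 79, 52 and 55 at 48 h, 510, 317, 360 and 501 at 72 h, and 880, 630, 501 and 853 at 96 h. In CPM its mean was 2.44 ± 0.208 at 48 h, rose to 15.6 ± 2.48 by 72 h and reached 28.9 ± 0.409 by 96 h (mean ± SD, n = 4). No library of one time overlapped those of another from 48 h on, and the 72 h libraries were the least even. The change from 48 h to 72 h was 2.65 with a standard error of 0.15 (log2, edgeR adjusted p = 6.08e-11).

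Member 3, ENSBTAG00000005759, came later and more steeply. No read was found at 24 h, the counts were 3, 2, 4 and 1 at 48 h and 17, 17, 17 and 20 at 72 h, and they reached 163, 149, 114 and 246 at 96 h. Only 9.88% of its 96 h CPM was present at 72 h, a 10.1-fold step on the last day from 0.669 ± 0.129 to 6.78 ± 1.21 CPM (mean ± SD, n = 4). It was already on by the 10-count threshold at 72 h. The earlier step, from 48 h to 72 h, was 2.85 with a standard error of 0.38 (log2, edgeR adjusted p = 1.47e-05). Member 23 had a like late step at lower counts. Its libraries held 7, 4, 2 and 4 counts at 48 h, 2, 3, 5 and 6 at 72 h and then 30, 10, 26 and 29 at 96 h, with no change that passed the test between 48 h and 72 h (log2 change -0.02, edgeR adjusted p = 0.980).

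Members 5 and 10 also rose after 48 h. Counts of member 5 were 0, 3, 4 and 1 at 24 h, 45, 29, 29 and 40 at 48 h, 90, 63, 122 and 130 at 72 h and then 154, 129, 125 and 180 at 96 h. Its 72 h level was uneven, at 3.88 ± 1.62 CPM, and overlapped the 96 h level of 6.07 ± 0.813 CPM (mean ± SD, n = 4). Member 10 had traces in every library at 24 h, with 8, 5, 5 and 4 counts, and 11, 15, 4 and 8 at 48 h. It then reached 43, 15, 39 and 48 at 72 h and then 101, 65, 72 and 71 at 96 h, all 96 h libraries above all 72 h ones in CPM. Its rise from 48 h to 72 h was 2.01 with a standard error of 0.34 (log2, edgeR adjusted p = 8.35e-05), after a second day that did not pass the test (log2 change 0.86, edgeR adjusted p = 0.126).

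Members 6 and 9 differed widely between replicates. Member 6 held 21, 13, 8 and 9 counts at 24 h, 74, 107, 32 and 89 at 48 h, 140, 88, 158 and 63 at 72 h and then 144, 172, 50 and 142 at 96 h. Replicate C was the highest of the 4 counts at 72 h and the lowest at 96 h, and the CPM of 4.33 ± 2.28 and 5.10 ± 2.15 overlapped (mean ± SD, n = 4). Its change from 48 h to 72 h did not pass the test (log2 change 0.73, edgeR adjusted p = 0.152) but did with no filter (edgeR adjusted p = 4.61e-05), a difference whose cause was not tested. Member 9 held 4, 15, 5 and 3 counts at 24 h, 114, 96, 26 and 26 at 48 h, 113, 70, 40 and 41 at 72 h and then 120, 63, 42 and 156 at 96 h. Both batch 1 libraries were above both batch 2 libraries in count at 48 h and 72 h, and the change between those times was 0.19 with a standard error of 0.32 (log2, edgeR adjusted p = 0.659). At 96 h replicate D was the highest library, with the other 3 near their 72 h counts.

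**Figure D3:**
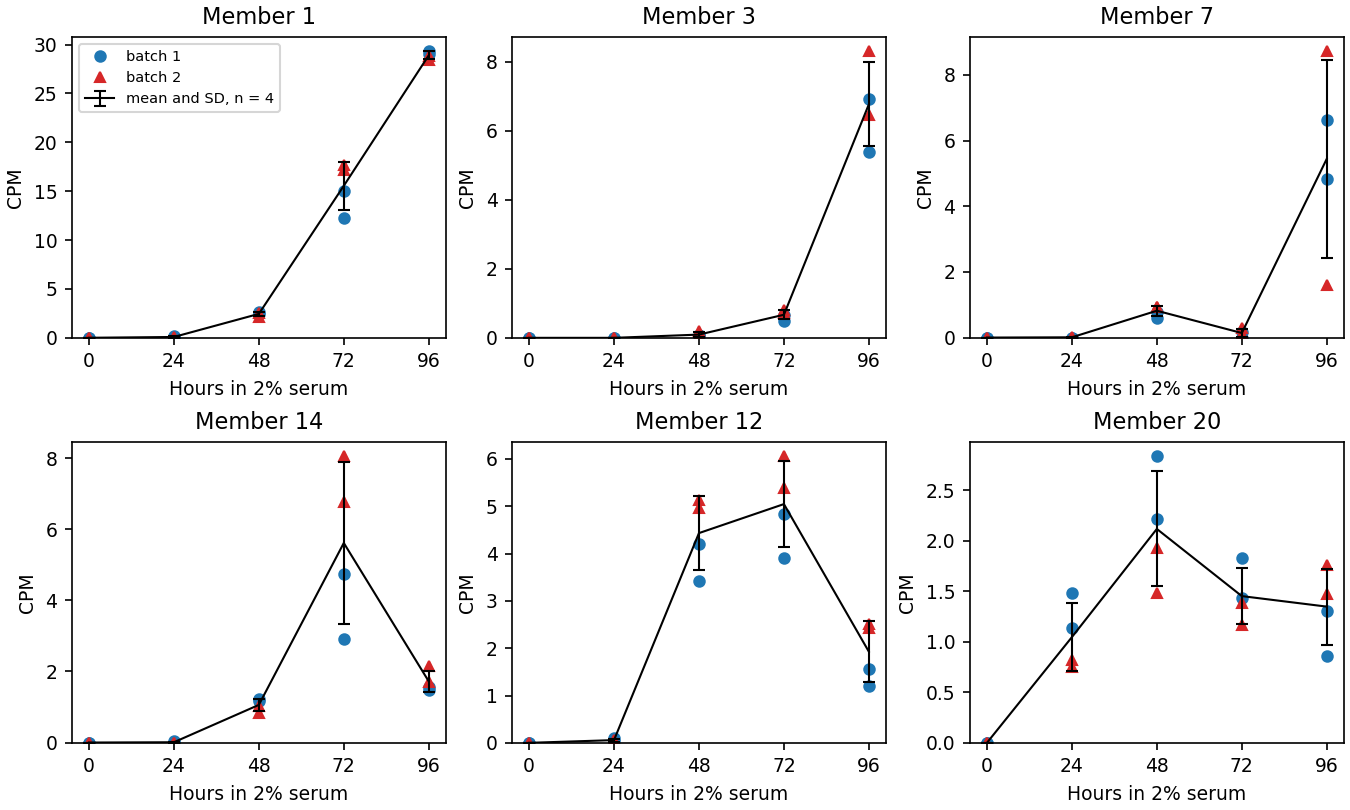
CPM of 6 members in each library by hours in 2% serum (circles batch 1, triangles batch 2; line and bars, mean and SD of 4 libraries; each panel has its own CPM axis from 0). Members 1 and 3 are highest at 96 h, member 7 is low again at 72 h, members 14 and 12 are lower at 96 h than at 72 h, and member 20 is present at 24 h.

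One gene came on, nearly vanished and returned. Member 7, ENSBTAG00000009774, had 0, 0, 0 and 1 counts at 24 h and 30, 20, 19 and 24 at 48 h, then 6, 0, 2 and 8 at 72 h and then 200, 104, 154 and 47 at 96 h. Its level was 0.817 ± 0.159 CPM at 48 h, fell to 0.139 ± 0.120 CPM by 72 h and stood at 5.44 ± 3.02 CPM by 96 h (mean ± SD, n = 4), and the libraries of these 3 times did not overlap. It was the 1 member that was on at 48 h and not at 72 h. The fall from 48 h to 72 h was called (log2 change -2.42, standard error 0.77, edgeR adjusted p = 0.0218). It did not pass in batch 2 alone (edgeR adjusted p = 0.267), without replicate B at 72 h (0.0564) or without replicate C at 72 h (0.0543), with log2 changes of -2.19, -2.04 and -2.30. The 96 h level was the least even of the named members, with replicate D lowest at 47 counts.

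Members 12 and 14 had their highest levels before 96 h and ended well below them. Member 14, ENSBTAG00000037949, had 0, 1, 0 and 0 counts at 24 h, 47, 38, 21 and 21 at 48 h, 161, 75, 169 and 191 at 72 h and then 47, 32, 38 and 50 at 96 h. The 72 h level of 5.62 ± 2.27 CPM was 3.26 times the 96 h level of 1.72 ± 0.299 CPM (mean ± SD, n = 4), with replicate B lowest at 72 h and no overlap between both times. Its rise from 48 h to 72 h was 2.30 with a standard error of 0.23 (log2, edgeR adjusted p = 1.44e-07). Member 12, ENSBTAG00000031135, came on in full on the second day. From 1, 3, 2 and 1 counts at 24 h it went to 163, 112, 104 and 126 at 48 h, 164, 101, 127 and 152 at 72 h and then 47, 26, 43 and 74 at 96 h. The change from 24 h to 48 h was 6.19 with a standard error of 0.27 (log2, edgeR adjusted p = 4.83e-14), and that from 48 h to 72 h was 0.19 and missed the threshold (edgeR adjusted p = 0.290). At 96 h it had 1.93 ± 0.643 CPM against 5.04 ± 0.909 CPM at 72 h (mean ± SD, n = 4), again with no overlap.

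Member 4 was likewise lower at 96 h than at 72 h, with 3, 4, 5 and 7 at 24 h, 111, 64, 53 and 66 at 48 h, 450, 285, 261 and 311 at 72 h and then 157, 130, 117 and 228 at 96 h. Its 72 h level of 11.9 ± 1.12 CPM was 1.87 times its 96 h level of 6.39 ± 1.06 CPM (mean ± SD, n = 4), without overlap. The rise from 48 h to 72 h was 2.25 with a standard error of 0.14 (log2, edgeR adjusted p = 2.52e-10).

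Member 2, ENSBTAG00000016801, was also highest at 72 h, but its 72 h and 96 h libraries overlapped. No read was found at 24 h, and the counts were 24, 19, 14 and 17 at 48 h, 296, 144, 258 and 282 at 72 h and then 234, 114, 175 and 208 at 96 h. Its 48 h level was at least 26.3-fold higher than at 24 h, counted against 3 reads over those 4 libraries. The next day added 3.79 with a standard error of 0.22 (log2, edgeR adjusted p = 7.85e-10). Members 8, 18, 19 and 25 were likewise highest at 72 h, and each overlapped with its own 96 h level. Member 8 held 3, 6, 6 and 4 counts at 24 h, 72, 66, 49 and 31 at 48 h, 190, 103, 105 and 129 at 72 h and then 135, 79, 64 and 167 at 96 h. Member 18 had 3, 5, 2 and 1 counts at 24 h and was level from 48 h, with 43, 31, 28 and 38, then 46, 34, 40 and 51, and 44, 33, 30 and 42 at 96 h.

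Members 19 and 25 had no read at 24 h. Member 19 held 3, 11, 8 and 6 counts at 48 h, 61, 23, 69 and 74 at 72 h and then 33, 27, 32 and 46 at 96 h, with replicate B lowest at 72 h. Member 25 held 18, 20, 21 and 16 counts at 48 h, 43, 21, 38 and 44 at 72 h and then 25, 17, 11 and 34 at 96 h. Both were called higher at 72 h than at 48 h, by 3.02 for member 19 (log2, edgeR adjusted p = 1.66e-06) and 1.01 for member 25 (log2, edgeR adjusted p = 0.00376). In batch 2 alone the change of member 25 was of like size, 1.04, and missed the threshold (edgeR adjusted p = 0.0684).

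The earliest gene was member 20, ENSBTAG00000054829, the 1 gene of the whole table with no read at 0 h and at least 10 in every library at 24 h. Its counts were 36, 45, 22 and 26 at 24 h, 86, 93, 30 and 49 at 48 h, 62, 37, 29 and 33 at 72 h and then 26, 28, 26 and 52 at 96 h. At 24 h it had 77.6% of its 96 h CPM, and it was highest at 48 h, at 2.12 ± 0.569 CPM against 1.05 ± 0.337 CPM at 24 h (mean ± SD, n = 4). At 24 h and at 48 h both batch 1 libraries were above both batch 2 libraries in CPM. The rise to 48 h was 1.03 with a standard error of 0.24 (log2, edgeR adjusted p = 0.000701). The following change of -0.55 missed the threshold (edgeR adjusted p = 0.0616), and did pass with no filter (0.0229), with library sizes alone (0.0301), with the 24 h, 48 h and 72 h libraries alone (0.0139) and without replicate C at 48 h (0.0407).

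Member 22, ENSBTAG00000010346, was also highest at 48 h. It held 12, 5, 7 and 10 counts at 24 h, 52, 70, 46 and 42 at 48 h, 25, 33, 27 and 29 at 72 h and then 36, 28, 23 and 26 at 96 h. After 1.85 ± 0.430 CPM at 48 h it was at 1.08 ± 0.260 CPM by 72 h and still at 1.17 ± 0.201 CPM by 96 h (mean ± SD, n = 4). The fall after 48 h was called (log2 change -0.78, standard error 0.23, edgeR adjusted p = 0.00963). It did not pass without replicate A at 72 h (log2 change -0.61, edgeR adjusted p = 0.0508) or, with changes of like size, in batch 1 or batch 2 alone (log2 changes -0.81 and -0.75, edgeR adjusted p = 0.0959 and 0.108). Member 33 completed the 3 genes highest at 48 h, but its levels from 48 h to 96 h, 0.722 ± 0.224, then 0.695 ± 0.0931 and last 0.585 ± 0.134 CPM, lay within the spread of the replicates (mean ± SD, n = 4). Its counts were 0, 0, 0 and 1 at 24 h, 20, 23, 21 and 16 at 48 h, 28, 18, 13 and 18 at 72 h and then 21, 12, 12 and 12 at 96 h.

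**Figure D4:**
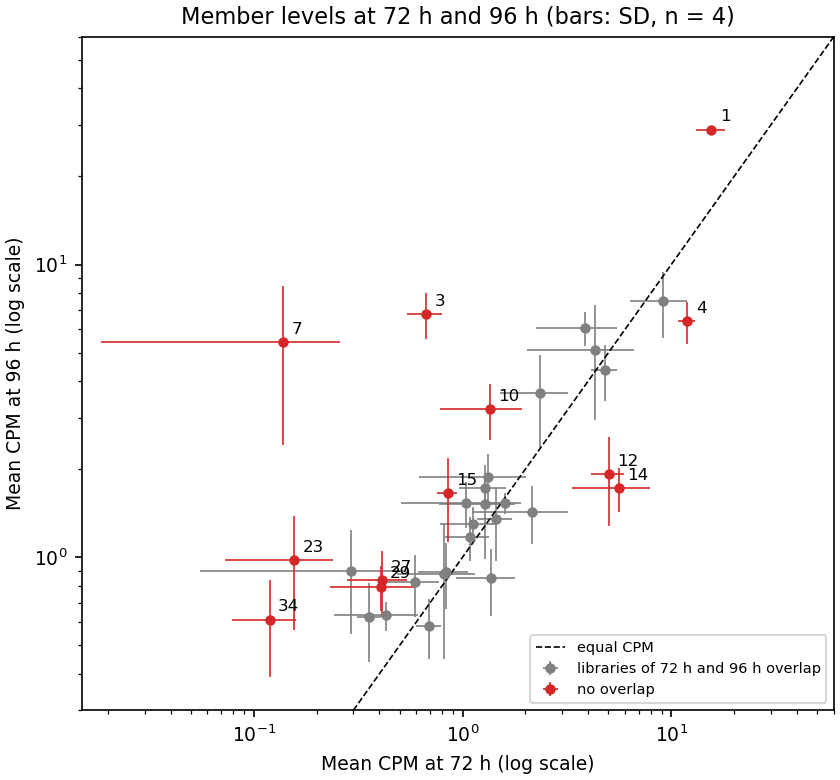
Mean CPM of each member at 72 h and at 96 h on log axes (bars, SD of 4 libraries; dashed line, equal CPM); red members, numbered, have no overlap between the libraries of both times. Of these, 9 lie above the line and members 4, 12 and 14 below it.

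Over the last day, every 96 h library was above every 72 h library for 9 members (1, 3, 7, 10, 15, 23, 27, 29 and 34) and below for 3 (4, 12 and 14). Among the 14636 genes that passed the filter, which member 34 did not, the shares were 14.7% above and 13.8% below. Since the 96 h counts had chosen the genes, the step from 72 h to 96 h was tested on genes chosen in one batch with the libraries of the other, 2 per time. Of the 61 genes chosen in batch 1, 57 passed the filter in batch 2, where 9 were called higher and 4 lower (edgeR), against 8.72% and 8.33% of all genes. DESeq2 gave an adjusted p for 33 of the 61 and called 4 higher and 4 lower, against 7.7% and 9.35% of all genes with one. Of the 90 chosen in batch 2, 86 passed the filter in batch 1, where 28 were called higher and 12 lower (edgeR), against 16.7% and 15.1% of all genes. DESeq2 gave an adjusted p for 64 of them and called 15 higher and 8 lower, against 14.2% and 14.8% of all genes with one. The filter in each batch used its libraries of every time, 96 h included, so chosen genes could pass it through libraries where they are high. With no filter, edgeR called 12 of the 61 and 30 of the 90 higher. No share of all genes was at hand for those fits, so these counts cannot be set against the shares above. Both sets of chosen genes hold all 34 members, whose 96 h counts in both batches set the choice. For that reason no call is given for a single member over the last day.

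The first day was tested in the same way. Of the 61 genes chosen in batch 1, 11 were called higher at 24 h than at 0 h in batch 2, where 24.9% of all genes were higher. Of the 90 chosen in batch 2, 27 were called higher in batch 1, where 27.4% of all genes were higher (edgeR). The count in batch 2 lay below the share of all genes and the count in batch 1 near it. Neither can be read as a result about the chosen genes, as low counts at 0 h and 24 h limit such calls. Genes could also pass the filter in each batch through later libraries where they are high. The 8 members with no read at 24 h had none at 0 h either, so they could not be called. The median log2 change was 2.14 over the 57 genes tested in batch 2, against -0.02 over all genes tested there. Over the 86 tested in batch 1 it was 2.10, against -0.03. The batch 2 median was the value of member 30, which held 0 and 0 counts at 0 h and 1 and 0 at 24 h there. A fitted change that rests on 1 read does not measure the size of a rise.

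Other genes without reads at 0 h were on at an intermediate time and not at 96 h. In all, 45 genes without reads at 0 h were on at 24 h or later, and 11 of them were not on at 96 h. Not on did not mean silent, as most of the 11 still held at least 10 reads in some 96 h library. The exceptions were ENSBTAG00000005122, with 1, 1, 0 and 1 counts at 96 h, and ENSBTAG00000006352, with 4, 1, 2 and 7. Of 24 genes without reads at 0 h that were on at 48 h, 18 were among the 34. Of 33 on at 72 h, 26 were. The opposite course, at least 10 reads in each library at 0 h and none at 96 h, was found in 3 genes.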

How the data were processed

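Stranded mRNA libraries were read to 75 bp, per the labels' protocols. The submitters' processing notes name STAR 2.7, featureCounts and the build bosTau9. Which parameters, strand setting and annotation were used is not given in the sources used here, and overlapping or near-identical genes were not examined. The deposited values are raw read counts per gene, whole numbers, with 0 lines that name no gene.

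The analysis used R 4.3.3, edgeR 4.0.16 and DESeq2 1.42.0. Genes were kept by filterByExpr (minimum count 10, minimum total 15), which left 14636 and 33 of the 34 members. Member 34 did not pass. Libraries were scaled by TMM, and all 20 libraries entered a robust quasi-likelihood fit on time point and batch. Tests were two-sided, with Benjamini-Hochberg adjustment over all genes kept and a threshold of 0.05. Tests in one batch used its 10 libraries and time point alone. Fits were tested on simulated data with changes placed only in genes with many reads. Genes without a read at a time, as among the members, were not covered by it. Where a group had 0 counts, folds were set against a floor of 3 counts over its 4 libraries. The interval at 95% is the exact conditional binomial one, and intervals and floors cover counting error only. No 2 libraries were identical, and replicates differed by more than sampling noise in all 30 pairs.

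The members were chosen with earlier results of these data known. Values in full are given for the 10 members with the most reads at 96 h, those on at 24 h, those highest before 96 h, and the 3 with the largest and 3 with the smallest share of their 96 h CPM at 72 h. Lists of muscle genes and of markers of other cell types needed symbols and were not tested.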

Additional observations from a re-analysis of the deposited data

How the results depend on the processing

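The number of genes varied with the rule: 62 with at least 5 counts at 96 h, 22 with at least 20, 111 with up to 3 counts at 0 h, 61 and 90 by batch 1 and batch 2 alone, and 45 with all libraries thinned to the smallest total. Leaving out single 0 h or 96 h libraries, an alternative chosen after seeing the data, gave 34 to 60. Members on at 24 h were 10 with at least 1 count and 3 with at least 5. At 48 h they were 31 with at least 1 count and 11 with at least 20, and at 72 h 17 with at least 20. The median share of the 96 h level was 28.6% at 48 h in batch 2 and 84.1% at 72 h in batch 1. Without single libraries it ranged from 1.37% to 2.86% at 24 h, 36.9% to 43.3% at 48 h and 71.6% to 80.8% at 72 h, with 18 to 21 members on at 48 h and 26 to 28 at 72 h. DESeq2, which gave an adjusted p for fewer of the genes, made 4 and 15 higher calls for the last day. Without single libraries, 30 to 32 members were called higher for 48 h against 24 h and 14 to 16 for 72 h against 48 h. With library sizes alone the median of all genes shifted to -0.32 and -0.11 in these steps, and 30 and 15 members were called higher. Of the named members' changes from 48 h to 72 h, 8 reversed in sign, all of members 23 and 33, whose changes of -0.02 and 0.02 did not pass the test. Member 23 was at 0.76 in batch 2 alone and between -0.21 and 0.28 without single libraries. Member 33 was at -0.081 with library sizes alone, -0.37 in batch 2 alone and between -0.16 and 0.23 without single libraries. In batch 2 alone the second-day rise of member 7 (5.49) missed the threshold (edgeR adjusted p = 0.0517).

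Equal letters do not pair the libraries in the labels. Over 40 same-letter pairs, deviations from the mean of each time correlated at -0.35 to 0.53 (median 0.14), and 22 pairs exceeded 0.1. With the letter as a replicate block in place of batch, 30 and 15 members were called higher in these steps.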
